A study of Rattus norvegicus with 18 samples.

Results

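The genes described here are 49 rat genes of muscle, listed as targets of the MEF2 transcription factors in muscle cells, and the question was which of them were silent, detectable or inducible in hippocampal neurons. The list was written from general knowledge with earlier results of these data known. A gene was taken where the array's probe annotation gave a probe set that gene's symbol and no other, and a gene with several such probe sets was represented by the brightest one, by mean log2 intensity over all 18 arrays. This gave 47 measured genes among the 14217 named genes of the array. Mylpf and Myf5 were not analysed here. The 47 genes comprise 7 myosin chains, 12 proteins of the actin filament, Z-disc and intermediate filament, 8 troponin subunits, 6 proteins of calcium handling, 7 of energy metabolism, 4 transcription regulators and 3 secreted signals.

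The neurons were rat hippocampal cells in dissociated culture, and gene expression was measured on 18 Affymetrix arrays. All cultures received a lentivirus on day 3 in vitro, and 4-hydroxytamoxifen (4OHT) was applied on day 10. The control groups, at 0, 1 and 2.5 h of 4OHT, carried MEF2deltaDBD-VP16-ER, and 3 groups at the same times carried MEF2-VP16-ER. Each of the 6 groups held 3 arrays that the labels call biological replicates. The labels name no culture without a virus, so every culture had received a virus for a VP16-ER fusion protein, whose expression was not measured here. Both proteins were introduced forms of MEF2 and not the neurons' own. The p-values below measure the spread between these replicates, and no label says whether they came from separate dissections.

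MEF2 proteins bind an A/T-rich DNA element in the control regions of many genes of the contractile apparatus, and in muscle they act together with myogenic regulators such as MyoD and myogenin. The same family is present in neurons, where its activity follows synaptic and calcium signals. In MEF2-VP16-ER the viral VP16 domain is a strong activator of transcription, and the ligand-binding domain of the estrogen receptor makes the fusion depend on 4OHT. The control form, as its name gives it, lacks the DNA-binding domain.

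The deposited values are intensities on a linear scale, and array medians lay between 190 and 197. Of 10 neuronal marker genes, 8 had bright probe sets, as had 4 of 6 astrocyte markers. Of 10 markers of smooth muscle and pericytes 7 were near background and 3 detectable, and all 4 measured endothelial markers were near background. Of 7 fibroblast markers 2 were bright, 1 detectable and 4 near background, and of 4 microglia markers 2 were detectable and 2 near background. Here a probe set is called near background when its mean on the log2 scale lay at or under an intensity of 140.5, the 90th percentile of 46 genes specific to other tissues, and bright when it lay over 687.8, the upper quartile of all probe sets. These words describe the brightness of one probe set, not the abundance of one transcript against another.

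Most of the muscle genes were near background in neurons. Of the 47 genes 35 were near background, 11 were detectable and 1, Acta2, was bright. Of all probe sets 42.9% lay at or under the same boundary. With the median of all probe sets, 195.3, as the boundary in place of the reference genes, 41 were at or under it, 5 were detectable and 1 was bright. The median probe set of the 47 genes had an intensity of 94.6, against 63.9 for the reference genes of other tissues. By the same boundary 41 of the 46 reference genes were near background and 5 detectable, with a highest median of 470. The word detectable alone therefore does not show expression in neurons. The number of muscle genes above the boundary on all 3 arrays of a group was 12, 11 and 12 in control neurons at 0, 1 and 2.5 h, and 10, 12 and 13 in MEF2-VP16-ER neurons. In bulk RNA, fewer cells of a type and less RNA per cell cannot be told apart.

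The 12 genes over the boundary came from 5 of the 7 roles. Acta2, the smooth muscle alpha-actin, ranged from 974 to 1373 over the 18 arrays with a median of 1143. Acta1, the skeletal muscle alpha-actin, ranged from 199.7 to 382 with a median of 311. Actin genes are closely related in their coding sequences, and whether these probe sets also bind other actin transcripts was not tested. Actn2, the Z-disc alpha-actinin, had a median of 148, and Myoz1, a calcineurin-binding protein of the Z-disc, a median of 151. Both ranges crossed the boundary, with lowest values of 129 and 139.

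Of the 8 troponin genes 4 were near background by this boundary and 4 detectable. Tnnt3, the fast skeletal troponin T, ranged from 186 to 233, and Tnni2, the fast skeletal inhibitory subunit, from 176 to 203. Tnni1, the slow skeletal inhibitory subunit, ranged from 184 to 264. Tnnc1, the calcium-binding subunit of slow and cardiac muscle, ranged from 141 to 180. The other 4 were near background, and the cardiac subunits Tnni3 and Tnnt2 had medians of 91.6 and 53.0. Among the other roles Myl2, a regulatory light chain of myosin, had a median of 168, and Slc2a4, the insulin-responsive glucose transporter of muscle and fat, a median of 152.

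The transcription regulators lay at both ends. Myod1 and Myf6, which encode myogenic factors of the basic helix-loop-helix family, had the lowest medians of all 47 genes: Myod1 ranged from 28.9 to 32.9 and Myf6 from 27.4 to 32.1. Only 2.82% and 2.43% of all probe sets were as dim or dimmer by mean log2 intensity. Myog, which encodes myogenin, ranged from 201 to 290 with a median of 230. Ppargc1a, a coactivator that drives mitochondrial gene expression in muscle, brain and other tissues, ranged from 392 to 890 with a median of 506. All 6 genes of calcium handling and all 3 secreted signals had means near background over the 18 arrays, among them Ryr1, the calcium release channel of skeletal muscle, with a median of 94.6.

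**Figure D1:**
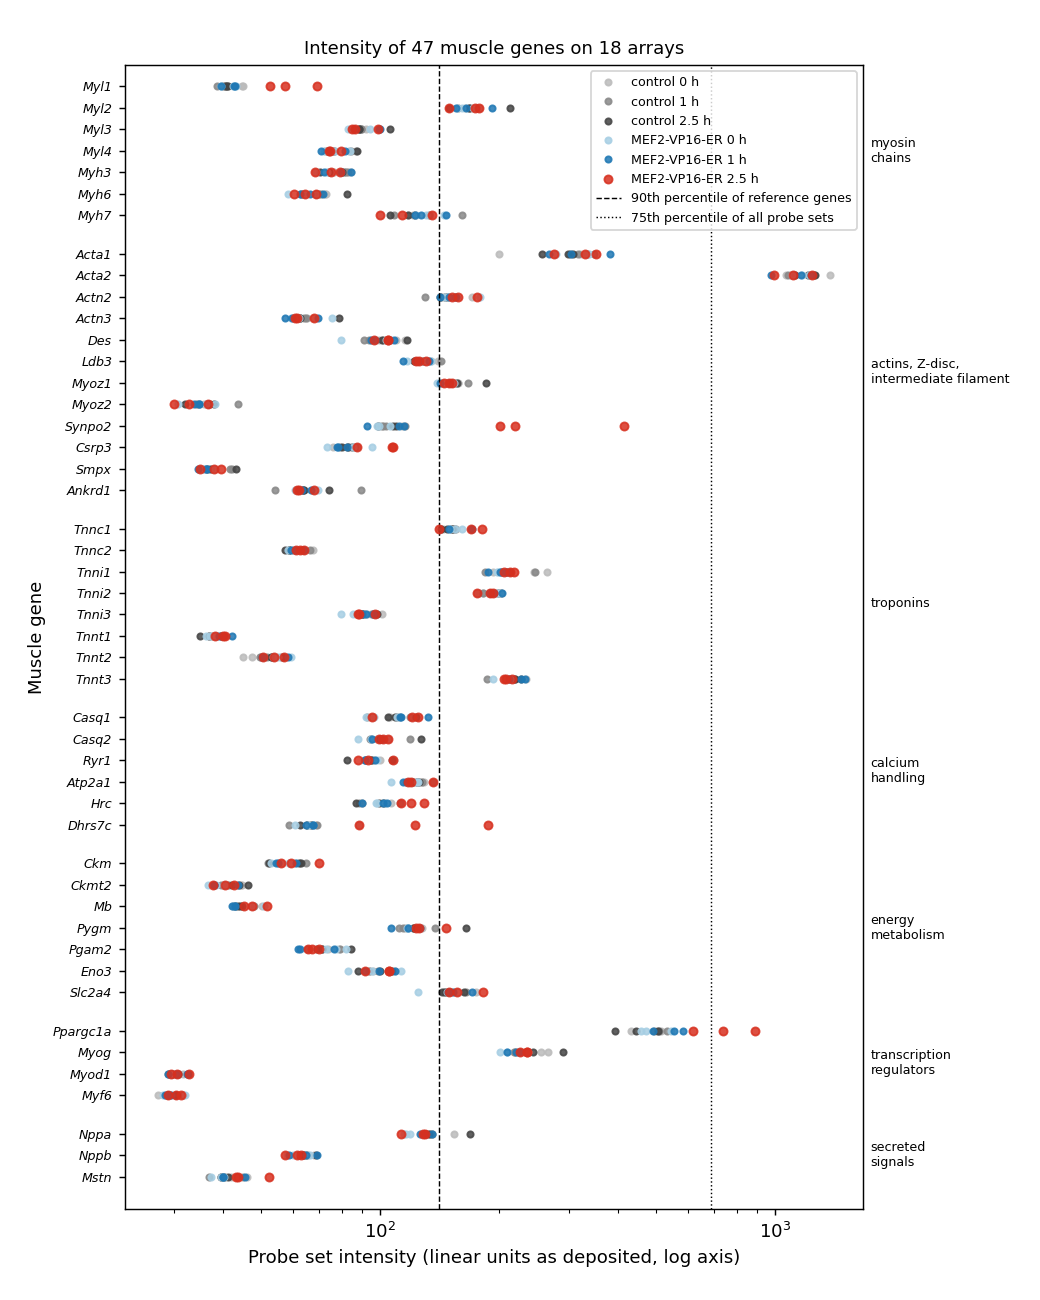
Probe set intensity (horizontal, linear units on a log axis) of the 47 muscle genes grouped by role, with 1 point per array coloured by construct and time of 4OHT. The dashed line is the near-background boundary of 140.5 and the dotted line the bright boundary of 687.8. Synpo2, Dhrs7c, Ppargc1a, Myl1 and, narrowly, Hrc have 3 points of MEF2-VP16-ER at 2.5 h to the right of all their others.

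The next comparison asked which muscle genes changed in MEF2-VP16-ER neurons between 0 and 2.5 h of 4OHT. Of the 47 genes 4 rose and 0 fell: Synpo2, Dhrs7c, Ppargc1a and Myl1. That is 8.51% of the muscle genes called higher, where 0.506% of all probe sets were called higher and 0.283% lower. With the replicate number as a block 8.51% of the muscle genes were called higher, where 1.33% of all probe sets were called higher and 0.999% lower. The genes were listed with earlier results of these data known, so these shares are no test of the list. When the 6 arrays of this comparison were fitted on their own, 0 of the 47 genes were called. The share of all probe sets called in that smaller fit was not counted, so the 0 is not a result about the muscle genes alone. A gene is called here when its p-value from limma's moderated test, adjusted by the Benjamini-Hochberg method over all 31042 probe sets, was under 0.05. Log2 units refer to log2(intensity + 16), and the added 16 makes the change of a dim probe set such as that of Myl1 look smaller than it is in intensity.

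Synpo2 encodes synaptopodin 2, an actin-binding protein of the Z-disc. In MEF2-VP16-ER neurons its intensities were 99.1, 106.0 and 98.0 at 0 h, 112, 115 and 92.7 at 1 h, and 201, 219 and 415 at 2.5 h. In control neurons they were 101.0, 113 and 100.5 at 0 h, 115, 102 and 103 at 1 h, and 108, 109 and 98.5 at 2.5 h. The 3 MEF2-VP16-ER arrays at 2.5 h lay above the other 15, and the array of replicate 3 stood above the other two. The mean went from 101 ± 4.32 to 278 ± 119 (SD, n = 3). The rise was 1.26 ± 0.18 log2 units (SE, limma adjusted p = 0.0019), and it was called without any 1 of the 18 arrays. In this model without a block, leaving out all 6 arrays of 1 replicate number ended the call for number 1 (adjusted p = 0.0645) and number 2 (0.128) but not for number 3 (0.00157), and the other 3 genes below lost theirs each time. With the replicate number as a block Synpo2, Dhrs7c and Ppargc1a were called in all 3 such fits, with a highest adjusted p of 0.0244 for Synpo2, and Myl1 in 1 of 3.

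Dhrs7c encodes a short-chain dehydrogenase of the sarcoplasmic reticulum, the calcium store of muscle. Its intensities in MEF2-VP16-ER neurons were 65.8, 60.9 and 65.6 at 0 h, 67.7, 64.9 and 67.4 at 1 h, and 122, 88.5 and 188 at 2.5 h. In control neurons they were 68.9, 66.7 and 88.1 at 0 h, 65.1, 58.8 and 69.2 at 1 h, and 62.7, 66.9 and 65.2 at 2.5 h. The groups barely separated, since the lowest array at 2.5 h, 88.5, lay beside a control array of 88.1. The rise was 0.84 ± 0.16 log2 units (SE, limma adjusted p = 0.0217). In the model without a block its call was lost without any of the MEF2-VP16-ER arrays at 0 h (adjusted p = 0.0714, 0.112 and 0.0823 without replicate 1, 2 and 3). It was also lost there without replicate 1 at 2.5 h (adjusted p = 0.0644). With the replicate number as a block it was called in all 18 fits without 1 array (highest limma adjusted p = 0.0151).

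Ppargc1a encodes PGC-1alpha, the coactivator named above. Its intensities in MEF2-VP16-ER neurons were 456, 470.3 and 544 at 0 h, 553, 490.5 and 584 at 1 h, and 739, 619 and 890 at 2.5 h. In control neurons they were 502, 431 and 514 at 0 h, 507, 494 and 533 at 1 h, and 445, 392 and 504 at 2.5 h. All 3 arrays of MEF2-VP16-ER at 2.5 h lay above the other 15, and replicate 2 was the lowest of its group in 5 of the 6 groups. The rise was 0.58 ± 0.12 log2 units (SE, fold 1.5, limma adjusted p = 0.034). In the model without a block the call was lost without replicate 1 or 2 of MEF2-VP16-ER at 0 h (adjusted p = 0.146 and 0.161). It was also lost there without replicate 1 or 3 of MEF2-VP16-ER at 2.5 h (0.103 and 0.178). The same held without replicate 2 of control at 1 h (0.052) or replicate 1 of control at 2.5 h (0.0523). With the replicate number as a block Ppargc1a was called in all 18 fits without 1 array (highest limma adjusted p = 0.00135).

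Myl1 encodes the essential light chains of fast skeletal myosin. Its probe set was dim: intensities in MEF2-VP16-ER neurons were 42.4, 39.5 and 43.0 at 0 h, 39.4, 42.8 and 42.6 at 1 h, and 52.6, 69.1 and 57.3 at 2.5 h. In control neurons they were 41.0, 44.6 and 44.9 at 0 h, 40.9, 38.5 and 39.9 at 1 h, and 40.8, 40.5 and 41.1 at 2.5 h. The 15 other arrays lay between 38.5 and 44.9, all under the 3 arrays of MEF2-VP16-ER at 2.5 h. The rise was 0.39 ± 0.06 log2 units (SE, limma adjusted p = 0.00714). In the model without a block the call was lost without replicate 2 of MEF2-VP16-ER at 0 h (adjusted p = 0.0523). With the replicate number as a block Myl1 was called in all 18 fits without 1 array (highest limma adjusted p = 0.0219). At 2.5 h the mean of 59.7 ± 8.52 (SD, n = 3) was still under the near-background boundary, as was the mean of 133 ± 50.5 of Dhrs7c, while the 278 of Synpo2 was over it.

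**Figure D2:**
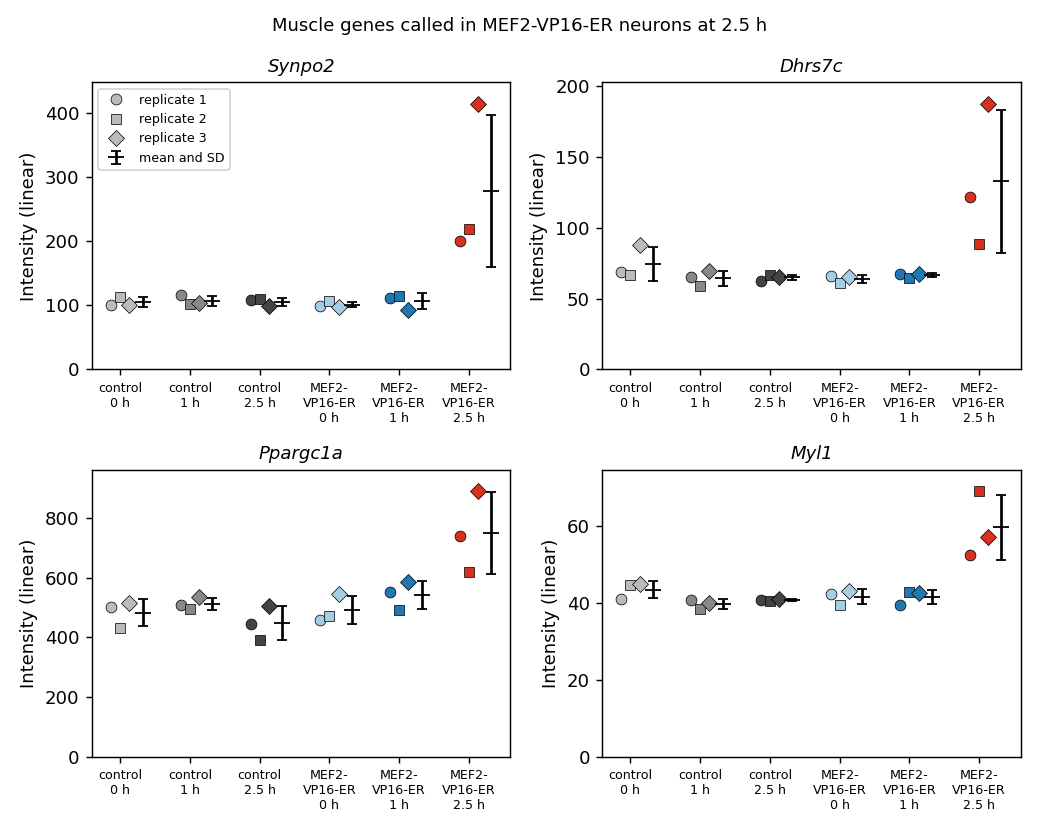
Intensity (vertical, linear units from 0) of the 4 called muscle genes on the 18 arrays, by construct and time of 4OHT (horizontal). Each symbol is 1 array, its shape gives the replicate number, and the bars are the mean and SD of 3 arrays; for Synpo2 the arrays at 2.5 h of MEF2-VP16-ER are 201, 219 and 415.

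The change in control neurons was then subtracted. The induction at 2.5 h, that is, how much more the intensity changed from 0 h with MEF2-VP16-ER than with the control construct, was positive in 3 of 3 replicate numbers for each of the 4 genes. It was 1.25 ± 0.25 log2 units for Synpo2, 0.99 ± 0.23 for Dhrs7c, 0.69 ± 0.17 for Ppargc1a and 0.45 ± 0.09 for Myl1 (SE, 3 arrays in each of 4 groups). Without the replicate number in the model 0 of the 47 genes were called, where 0.177% of all probe sets were, and 8 of the 47 muscle genes had an unadjusted p under 0.05, as had 4.78% of all probe sets. The limma adjusted p was then 0.0712 for Synpo2, 0.152 for Dhrs7c, 0.212 for Ppargc1a and 0.0734 for Myl1. With the replicate number as a block, as the arrays pair by number, all 4 were called, at adjusted p = 0.0207, 0.0131, 0.00132 and 0.0222, where 0.937% of all probe sets were. These blocked calls were reduced to 0 without replicate number 1, to Ppargc1a and Dhrs7c without number 2 and to Synpo2 without number 3. Under the block 8.51% of the muscle genes were called higher and 0.564% of all probe sets.

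The constructs were also set side by side at 2.5 h in the same model of 18 arrays, without subtracting their difference at 0 h. The same 4 genes were higher in MEF2-VP16-ER neurons, where 0.95% of all probe sets were called higher. The differences were 1.21 log2 units for Synpo2 (limma adjusted p = 0.00187), 0.82 for Dhrs7c (0.0177), 0.72 for Ppargc1a (0.00567) and 0.41 for Myl1 (0.00349). With the replicate block Hrc was called as well, at 0.28 ± 0.07 log2 units (limma adjusted p = 0.0447), and 2.46% of all probe sets were called higher. Hrc, which encodes a histidine-rich calcium-binding protein of the sarcoplasmic reticulum, was singled out after its values were seen. Its intensities were 113, 119 and 129 in MEF2-VP16-ER neurons at 2.5 h, and the highest of the other 15 arrays was 112. Its induction at 2.5 h was 0.33 ± 0.11 log2 units (SE), not called with a limma adjusted p of 0.67, or 0.252 under the block.

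In 5 of the 47 genes, Synpo2, Dhrs7c, Ppargc1a, Myl1 and Hrc, all 3 arrays of MEF2-VP16-ER at 2.5 h lay above the other 15. That is 10.6% of the muscle genes and 1.18% of all probe sets. In 0 of the 47 all 3 lay below, as in 0.506% of all probe sets. These shares too are no test of the list, which was written with earlier results known.

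Other probe sets of the same genes did not all show the change. Synpo2 had 4 probe sets, and the induction at 2.5 h was 1.25 log2 units for 1371679_at, the one described, but −0.0040 for 1384160_at, 0.18 for 1376398_at and 0.05 for 1393528_at. The median intensity of 1384160_at was 112, close to that of 1371679_at before induction, and the other two were dimmer, at 63.4 and 42.2. Ppargc1a had 3, with inductions of 0.69 for 1393743_at, 0.42 ± 0.18 for 1395518_at and 0.33 ± 0.15 for 1370089_at (SE), the last 2 not called with limma adjusted p = 0.966 and 0.977. Dhrs7c and Myl1 had 1 probe set each. Which transcript forms these probe sets bind was not tested.

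Promoter windows show how the called genes differ in sequence near their starts. Each window runs from 250 bases before to 50 bases after a gene's start in the RefSeq annotation of the rat build GRCr8, and 38 of the 47 genes matched a window, Dhrs7c not among them. In the following windows, written 5′ to 3′ on the gene's strand, capitals mark a MEF2 consensus site in Myl1 and Myoz2 and a cAMP response element in Ppargc1a, and the window of Synpo2 holds neither.
Myl1: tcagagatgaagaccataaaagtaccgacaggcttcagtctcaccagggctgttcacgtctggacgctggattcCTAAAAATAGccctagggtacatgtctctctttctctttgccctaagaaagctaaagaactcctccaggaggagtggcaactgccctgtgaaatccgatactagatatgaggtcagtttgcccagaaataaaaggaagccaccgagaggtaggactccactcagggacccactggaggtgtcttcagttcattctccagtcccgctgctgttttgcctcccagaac
Myoz2: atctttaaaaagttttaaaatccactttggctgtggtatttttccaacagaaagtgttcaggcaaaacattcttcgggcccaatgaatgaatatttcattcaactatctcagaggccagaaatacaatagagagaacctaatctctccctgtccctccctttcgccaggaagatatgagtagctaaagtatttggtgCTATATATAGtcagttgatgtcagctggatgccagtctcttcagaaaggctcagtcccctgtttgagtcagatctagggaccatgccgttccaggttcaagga
Ppargc1a: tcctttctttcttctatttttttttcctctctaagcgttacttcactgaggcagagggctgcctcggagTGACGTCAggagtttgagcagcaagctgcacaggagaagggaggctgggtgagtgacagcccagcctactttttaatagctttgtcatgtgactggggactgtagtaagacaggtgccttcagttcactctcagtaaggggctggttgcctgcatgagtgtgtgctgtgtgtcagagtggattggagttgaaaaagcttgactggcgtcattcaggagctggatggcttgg
Synpo2: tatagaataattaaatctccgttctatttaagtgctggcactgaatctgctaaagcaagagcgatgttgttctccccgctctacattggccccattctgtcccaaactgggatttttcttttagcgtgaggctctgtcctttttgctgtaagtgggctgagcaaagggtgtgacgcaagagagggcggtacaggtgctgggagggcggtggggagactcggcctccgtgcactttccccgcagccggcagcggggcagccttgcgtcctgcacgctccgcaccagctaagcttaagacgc
The windows lie on the minus strand of chr9:75897750-75898049 for Myl1, the minus strand of chr2:213852729-213853028 for Myoz2, the plus strand of chr14:63634058-63634357 for Ppargc1a and the minus strand of chr2:214055795-214056094 for Synpo2. Myl1 has a second annotated start, at chr9:75907647-75907946 on the minus strand, whose window holds no match.

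The MEF2 consensus, searched on both strands, was found in windows of 6 muscle genes, or 15% of their 40 windows, and in 3.29% of all 33469 windows. In Myl1 it began 176 bases before the start and in Myoz2, a Z-disc protein that binds calcineurin, 53 bases before. The others were Myf6 (76 bases before the start), Myoz1 (83), Smpx (101) and Casq2 (149). Of these 6 genes 1, Myl1, rose at 2.5 h, and the inductions of the other 5 lay between −0.07 and −0.00 log2 units. The CArG box, the site of serum response factor, was in 3 windows of muscle genes, those of Acta1, Ldb3 and Myl3, or 7.5%, against 1.64% of all windows. The cAMP response element TGACGTCA was in 1, that of Ppargc1a, or 2.5%, against 1.83% of all windows. No 2 matches overlapped, and a match is a stretch of letters, not a measured binding site.

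The other 43 muscle genes had inductions at 2.5 h between −0.20 and 0.33 log2 units. For all 43 the upper limit of the 95% interval lay under 1 log2 unit, and for 40 of them under 0.5. The lowest lower limit was −0.53 and the highest upper limit 0.57. Over all 47 genes the median induction was 0.05 with 32 positive, while the median of all probe sets was 0.00 with 51.5% positive. At 0 h the muscle genes differed between the constructs by a median of −0.05 with 15 of 47 positive, and all probe sets by 0.01 with 53.9% positive. Without subtracting that difference, the constructs at 2.5 h differed by a median of 0.00 with 24 of 47 muscle genes positive, against 53.0% of all probe sets.

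The sarcomere genes apart from Synpo2 and Myl1 had small differences in either direction. The other 6 myosin chains lay between −0.09 and 0.13, and Myl2, the brightest of them, had an induction of 0.01 ± 0.15 log2 units (SE). At 0, 1 and 2.5 h Myl2 measured 172 ± 7.38, 164 ± 5.83 and 177 ± 33.2 in control and 163 ± 8.08, 171 ± 18.9 and 167 ± 15.7 in MEF2-VP16-ER neurons (SD, n = 3). Acta2 measured 1176 ± 171, 1145 ± 94.8 and 1196 ± 68.1 in control and 1160.0 ± 57.4, 1123 ± 133 and 1112 ± 124 in MEF2-VP16-ER neurons at these times, and its arrays overlapped between all 6 groups. It had an induction of −0.10 with a 95% interval from −0.43 to 0.23. Acta1 had one of −0.03 with a 95% interval from −0.53 to 0.46. It measured 285 ± 74.2, 322 ± 23.8 and 287 ± 27.2 in control and 317 ± 33.3, 318 ± 58.3 and 319 ± 39.8 in MEF2-VP16-ER neurons. Its control arrays at 0 h were 320.4, 335 and 199.7, the last below all others.

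None of the 8 troponins was called, with inductions between −0.20 and 0.23 log2 units. At 0, 1 and 2.5 h Tnni1 measured 234 ± 36.6, 211 ± 31.9 and 209 ± 4.86 in control and 199 ± 2.75, 199 ± 10.3 and 213 ± 6.17 in MEF2-VP16-ER neurons (SD, n = 3). Tnnt3 measured 219 ± 13.3, 206 ± 17.9 and 219.6 ± 6.57 in control and 206 ± 11.6, 224 ± 11.1 and 209.5 ± 5.24 in MEF2-VP16-ER neurons, and Tnni2 179 ± 3.21, 195 ± 11.5 and 192 ± 5.53 in control and 196 ± 5.98, 196 ± 6.67 and 186 ± 9.13 in MEF2-VP16-ER neurons. Between 0 and 2.5 h these ranges overlapped in MEF2-VP16-ER neurons for Tnnt3 and Tnni2, while all 3 arrays of Tnni1 were higher at 2.5 h by a small step. Tnni1 had an induction of 0.23 with a 95% interval from −0.07 to 0.53, and Tnnt3 one of 0.02 ± 0.09 (SE). Tnni2 had one of −0.16 with a 95% interval from −0.32 to −0.01, an interval not adjusted for the number of genes, and its limma adjusted p was 0.965. The 7 genes of energy metabolism, among them Ckm, the muscle creatine kinase, and Pygm, the muscle glycogen phosphorylase, lay between −0.17 and 0.24. The 3 secreted signals, the natriuretic peptides Nppa and Nppb and the growth inhibitor Mstn, lay between 0.01 and 0.24.

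The myogenic regulators did not pass the test in any comparison. Myog had an induction of 0.07 with a 95% interval from −0.17 to 0.31 log2 units, Myod1 one of 0.02 (−0.11 to 0.16) and Myf6 one of −0.02 (−0.14 to 0.11). In MEF2-VP16-ER neurons Myog measured 236, 201 and 209 at 0 h and 234, 235 and 226 at 2.5 h, against 255, 227 and 266 at 0 h and 243, 290.0 and 233 at 2.5 h in control neurons. These ranges overlap between times in both constructs. Myod1, at 30.7 ± 0.935, 29.3 ± 0.417 and 31.0 ± 1.51 in control and 30 ± 0.382, 30.6 ± 1.70 and 31.0 ± 1.68 in MEF2-VP16-ER neurons at 0, 1 and 2.5 h (SD, n = 3), and Myf6, at 28.6 ± 1.02, 30.8 ± 0.824 and 29.4 ± 0.775 in control and 29.9 ± 2.0, 29.0 ± 0.549 and 30.2 ± 1.11 in MEF2-VP16-ER neurons, were dim in all 6 groups.

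**Figure D3:**
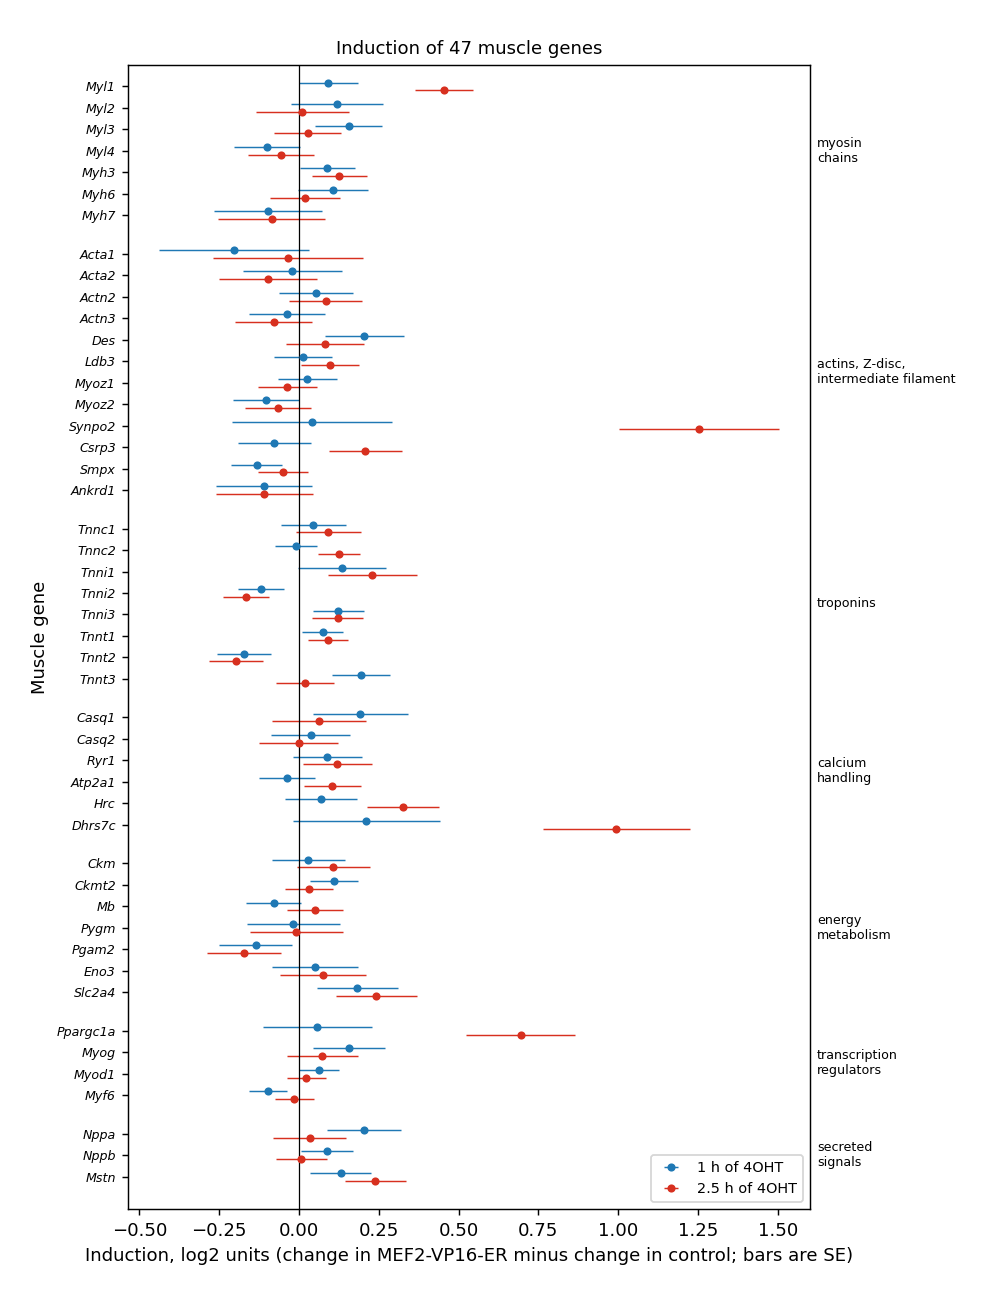
Induction of each of the 47 muscle genes in log2 units (horizontal; the change with MEF2-VP16-ER less the change with the control construct), at 1 h in blue and 2.5 h in red, with bars for the SE. Synpo2, Dhrs7c, Ppargc1a and Myl1 lie at 1.25, 0.99, 0.69 and 0.45 at 2.5 h, and the other 43 between −0.20 and 0.33.

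At 1 h of 4OHT none of the muscle genes was called. The induction at 1 h was called for 0 of 47 genes by limma and for 0.00322% of all probe sets, and 0 muscle genes had an unadjusted p under 0.05, against 4.70% of all probe sets. It was 0.04 log2 units for Synpo2, 0.21 for Dhrs7c, 0.06 for Ppargc1a and 0.09 for Myl1. The change from 0 to 1 h within MEF2-VP16-ER neurons was likewise called for 0 genes by limma and for 0.0354% of all probe sets. There 1 muscle gene (2.13%) had an unadjusted p under 0.05, against 4.17% of all probe sets. The median induction of the 47 genes at 1 h was 0.05 with 30 positive, against −0.02 with 44.1% positive over all probe sets, and the same 0 h arrays enter both inductions. Without subtracting the 0 h difference, the constructs at 1 h differed by a median of −0.02 with 18 of 47 muscle genes positive, against 45.3% of all probe sets.

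Whether the induction at 2.5 h was larger than that at 1 h was tested as a difference. Without the block limma called 0 muscle genes and 0.0419% of all probe sets. An unadjusted p under 0.05 was found for 6 muscle genes (12.8%) and for 3.92% of all probe sets. Under the block these shares were 12.8% and 7.69%. With the replicate block 2 were called, Synpo2 with a difference of 1.21 log2 units (limma adjusted p = 0.0462) and Ppargc1a with 0.64 (0.00643), where 0.399% of all probe sets were called. The adjusted p without the block was 0.175 for Synpo2 and 0.559 for Ppargc1a. The differences of Dhrs7c, 0.78, and of Myl1, 0.36, were not called with the block (limma adjusted p = 0.107 and 0.141).

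Before 4OHT no muscle gene passed the test between the constructs. At 0 h limma called 0 of the 47 genes and 0% of all probe sets. Without the block 7 muscle genes, or 14.9%, had an unadjusted p under 0.05, against 8.81% of all probe sets. Under the replicate block the shares were nearly equal, at 14.9% of the muscle genes and 14.5% of all probe sets. The 4 genes that rose later differed at 0 h by between −0.17 (Dhrs7c) and 0.02 (Ppargc1a) log2 units. In control neurons 0 muscle genes and 0% of all probe sets were called from 0 to 2.5 h, and 1 muscle gene (2.13%) had an unadjusted p under 0.05, against 2.15% of all probe sets. From 0 to 1 h the counts were also 0 and 1, against 2.71% of all probe sets at that unadjusted p. The control change from 0 to 2.5 h was 0.00 log2 units for Synpo2, −0.15 for Dhrs7c, −0.11 for Ppargc1a and −0.07 for Myl1.

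Some of the muscle genes differed between replicate numbers. A limma F test over the 3 numbers called 3 of the 47 genes, or 6.38%, against 29.6% of all probe sets: Ppargc1a (adjusted p = 0.00135), Acta2 (0.00595) and Casq1 (0.0245), the last the calcium-storing protein calsequestrin of skeletal muscle. The means over the 6 arrays of replicates 1, 2 and 3 were 534, 483 and 595 for Ppargc1a, 1054, 1160 and 1242 for Acta2, and 110.0, 118 and 100.1 for Casq1. Without the arrays of replicate 3 the test called 0 of the 47. The share of all probe sets called without those arrays was not counted, so this 0 is not a result about the muscle genes alone.

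**Figure D4:**
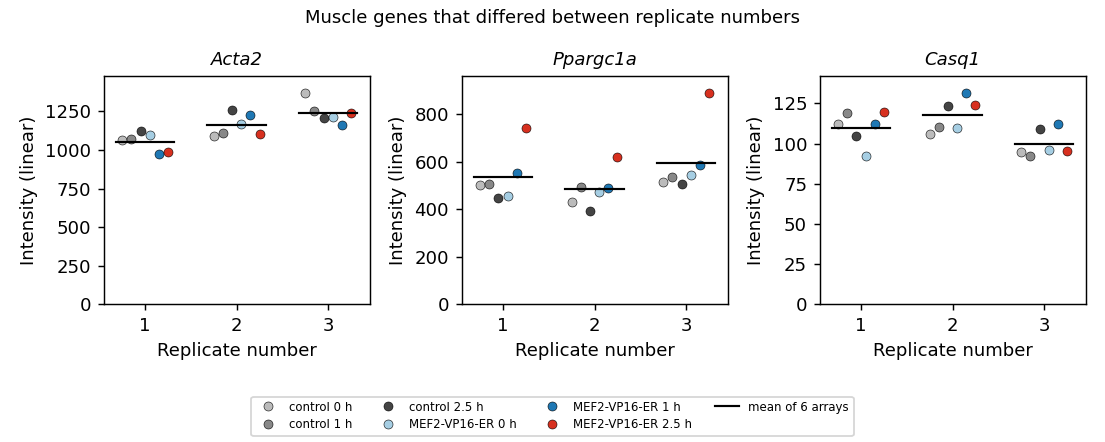
Intensity (vertical, linear units from 0) of Acta2, Ppargc1a and Casq1 by replicate number (horizontal), with 1 point per array coloured by group and a line for the mean of the 6 arrays. Acta2 had means of 1054, 1160 and 1242 over replicates 1, 2 and 3, and in Ppargc1a the array of MEF2-VP16-ER at 2.5 h is the highest within each number.

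Markers of cells other than neurons were read beside these genes. The summed intensity of the 10 markers of smooth muscle and pericytes ranged from 1132 to 1204 in MEF2-VP16-ER neurons at 0 h and from 1182 to 1224 at 2.5 h, and in control neurons from 1169 to 1282 and from 1213 to 1350. None of the 10 was called in the induction at 2.5 h, with or without the block, and none was at 0. The summed intensity of the 7 fibroblast markers varied more, from 3462 to 7897 over all arrays. Within MEF2-VP16-ER neurons it ranged from 3722 to 5952 at 0 h and from 3462 to 6289 at 2.5 h, so the groups overlapped. In the induction at 2.5 h 0 of the 7 fibroblast markers were called by limma, with or without the block, and 0 had an unadjusted p under 0.05 without it. Between the constructs at 2.5 h 1 of them, Dcn, was called lower in MEF2-VP16-ER neurons under the block (−0.58 log2 units, limma adjusted p = 0.00106), and it was at 1 h as well (−0.57, 0.0098). The part of such cells in the level of Acta2 was not tested.

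Further muscle genes outside the 49 were read in the same way. Of 50 other genes of skeletal and cardiac muscle 44 were measured, with 30 near background, 11 detectable and 3 bright. Their median induction at 2.5 h was 0.05 log2 units with 29 positive. Without the block limma called 0, with 4 at an unadjusted p under 0.05. For this induction 0.177% of all probe sets were called without the block and 0.937% with it, and 4.78% had an unadjusted p under 0.05 without it. With the block 1 was called, Popdc3, a membrane protein of striated muscle, with an induction of −0.60 log2 units (limma adjusted p = 0.00785). Of 28 transcription regulators linked to muscle 22 were measured, and again 0 were called without the block, with 5 at an unadjusted p under 0.05. With the block 1 was called, Srf, the serum response factor, with an induction of −0.47 log2 units (limma adjusted p = 0.0081). Between the constructs at 2.5 h 2 of the regulators were called higher without the block, and 3 higher and 2 lower with it. The differences of the 22 regulators ranged from −1.36 to 0.96 log2 units at 2.5 h. They ranged from −0.81 to 0.55 at 1 h and from −0.15 to 0.38 at 0 h, before 4OHT. Of the other muscle genes 0 were called between the constructs at 2.5 h without the block, and 1 higher and 2 lower with it. Of all probe sets 0.95% were called higher and 0.329% lower without the block, and 2.46% and 1.03% with it. In the change from 0 to 2.5 h within MEF2-VP16-ER neurons 0.506% of all probe sets were called higher and 0.283% lower without the block. There Hdac5, a histone deacetylase that binds MEF2, rose by 0.55 ± 0.11 log2 units (limma adjusted p = 0.0226). Id2, an inhibitor of basic helix-loop-helix factors, fell by 0.71 ± 0.13 (limma adjusted p = 0.0129). With the block, where 2.33% of all probe sets were called, 4 more genes passed: Jph1, a junctional membrane protein, rose by 0.38 (limma adjusted p = 0.0164) and Xirp1, an actin-binding protein, by 0.38 (0.0401), and Popdc3 fell by 0.51 (0.000853) and Srf by 0.30 (0.00814).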

How the data were processed

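RNA of the 18 arrays was read from 1 table of intensities on a linear scale, as deposited by the authors. How the authors summarised probes, corrected background and normalized is not stated in the labels or the table. The 57 control probe sets were left out and the other 31042 tested without a filter on dim ones. Of these 20826 had 1 gene symbol, 436 several and 9780 none, from GEO's platform annotation. The precision rests on 3 arrays per group, and what else limits it, such as the dimness of a probe set, was not tested.

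The labels gave each array's group and replicate number. All arrays entered 1 limma model of the 6 group means on log2(deposited intensity + 16), with eBayes and Benjamini-Hochberg adjustment over all probe sets within each contrast. The residual degrees of freedom were 12 (prior 2.89) and the median residual SD 0.10 log2 units, or 10 (5.13) and 0.09 with the replicate number as a block. Residuals of same-numbered arrays correlated above 0.1 in 44 of 45 pairs, the lowest being 0.0677, between 0 and 1 h of MEF2-VP16-ER in replicate 2. By these pairs every comparison except those between 0 and 1 h of MEF2-VP16-ER (alone or in the induction at 1 h) was therefore taken as paired, and its blocked result is given where it changes a call or count.

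The members and gene lists were written from general knowledge with earlier results of these data known, so no p-value is adjusted over a list and none supports it. Genes named by rule are members called in any contrast with or without the block, or with an unadjusted p under 0.01 in the induction at 2.5 h, the 8 brightest members and the myogenic regulators. Members named as extremes of a range, or as examples of a role, were chosen after their values were seen.

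Alternatives covered the scaling (quantile normalization or centring on medians), the pseudocount (1 or 64), the probe sets tested (those brighter than the median, or a single one for each gene), the eBayes step (trend and robust), the arrays fitted (those of a contrast alone), a direct comparison of constructs at 2.5 h, a gene's other probe sets, the replicate block, and omission of arrays or replicate numbers. Leaving out arrays under the block was added after the data were seen. Artificial data with planted differences were used to check only the unblocked induction at 2.5 h and the F test over replicate numbers. The fit with the block and the remaining steps were not checked in this way. Promoter windows are RefSeq's (GRCr8). The work used limma 3.58.1 in R 4.3.3, and Python 3.11.15 with pandas 2.3.3 and matplotlib 3.10.9.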

Additional observations from a re-analysis of the deposited data

Results flagged for a closer look

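In 4 muscle genes the change from 0 to 2.5 h of 4OHT differed between the constructs when the difference itself was tested in a model blocked on replicate number. The difference, in log2 units, was 1.25 for Synpo2, 0.99 for Dhrs7c, 0.69 for Ppargc1a and 0.45 for Myl1, each positive in 3 of 3 replicate numbers. Without the block none of the 4 passed the test (limma adjusted p = 0.0712, 0.152, 0.212 and 0.0734).

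In 2 of them the difference between the constructs was also larger at 2.5 h than at 1 h under the block, by 1.21 log2 units in Synpo2 (limma adjusted p = 0.0462) and by 0.64 in Ppargc1a (0.00643).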

How the results depend on the processing

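Without subtracting the 0 h difference, 4 muscle genes were called at 2.5 h between the constructs, and 5 with the replicate block as well. The sign of 5 uncalled inductions turned there, to 0.14 for Acta1, −0.12 for Myog, −0.063 for Tnnt3, −0.065 for Myl2 and 0.025 for Myf6 log2 units. With the replicate block alone 4 muscle genes were called in the induction at 2.5 h, where there were 0 without it, and 2 in its difference from the induction at 1 h. The pairing by replicate number changed no other count of called muscle genes by over 1.5 times. With 1 probe set per gene tested, 1 was called in the induction at 2.5 h (Synpo2, limma adjusted p = 0.043) and 5 differed between replicate numbers, with fewer tests to adjust for. With trend and robust eBayes 1 was called (Myl1, limma adjusted p = 0.0359). The 4 genes that rose within MEF2-VP16-ER neurons came down to 1 when probe sets dimmer than the median were left out, which took 3 of the 4 away, and to 0 when only the 6 arrays of that contrast were fitted. The median induction at 1 h was 0.035 with a pseudocount of 64 and 0.096 over the probe sets brighter than the median. Quantile normalization turned Myl2 to −0.0049, and probe set 1384160_at of Synpo2 gave −0.0040. The cause of the changes with trend and robust eBayes, quantile normalization and the other probe set was not tested. The share of all probe sets called was counted only in the main model and with the replicate block, the direct comparison of constructs included. In the other fits a changed count of called muscle genes is therefore not a result about these genes alone.

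When single arrays or whole replicate numbers were left out, with and without the block, called muscle genes numbered 0 to 4 in the induction at 2.5 h, 0 to 3 in its difference from 1 h, 0 to 5 within MEF2-VP16-ER neurons and 0 to 5 between replicate numbers. The share of all probe sets called was not counted in any of these fits. Without the block the count within MEF2-VP16-ER neurons was 2 without replicate 1 at 0 h or at 2.5 h, 1 without replicate 2 at 0 h, 0 without number 1 or 2, and 1 without number 3, while under the block it was 3 to 4 without a number. With the block the 4 genes were called within MEF2-VP16-ER neurons in all 18 fits without 1 array, and in the induction at 2.5 h Ppargc1a was called in 18, Dhrs7c in 17, Synpo2 in 13 and Myl1 in 12. Without a whole replicate number the blocked induction at 2.5 h was called in 1 of 3 fits for Ppargc1a, Dhrs7c and Synpo2 each and in 0 of 3 for Myl1. The median induction ranged from 0.020 to 0.10 at 2.5 h and from 0.028 to 0.067 at 1 h. Uncalled inductions at 2.5 h crossed 0, from −0.26 to 0.26 for Acta1, −0.033 to 0.17 for Myog, −0.040 to 0.093 for Tnnt3, −0.14 to 0.14 for Myl2, −0.0049 to 0.048 for Myod1 and −0.042 to 0.023 for Myf6.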
